A study of Mus musculus with 78 samples.

Results

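Apelin (gene Apln) and its receptor (gene Aplnr) were followed through 10 groups of mouse flank tissue. Every probe set whose single gene symbol in the platform annotation was Apln or Aplnr was taken, whatever its level, which gave 2 of 18194 genes. Apln was read by 1 probe set and Aplnr by 2, a brighter and a dimmer one. All 3 probe sets passed the filter on low signal, with 78, 78 and 70 of 78 arrays above its level in that order.

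Apelin is a secreted peptide cut from a longer precursor, and it acts on a G protein-coupled receptor of the cell surface, also called APJ, that signals through inhibitory G proteins and arrestins. In growing vessels the ligand is known to be made by endothelial tip cells at the sprouting front, while the receptor is carried by other endothelial cells, those of veins among them. Fat, heart and skeletal muscle also make apelin, and in vessels the pair is known for effects on sprouting, vessel calibre and tone.

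The study drove vessel growth with an adenovirus that makes the mouse growth factor form VEGF-A164. The virus (5 × 1e8 plaque-forming units, 50 µl, intradermal) was put into flank skin of female athymic nude mice aged 4 to 6 weeks. All groups were of the strain Crl:NU(NCr)-Foxn1nu, which lacks a working thymus and so most T cells, and the injected mice also received the virus in the ears. Besides 8 arrays of control flank at day 0, there were 8 arrays of virus-injected flank with no antibody (untreated) at each of days 5, 20 and 60. Mice given the antibody G6 (10 mg per kg) or DC101 (20 mg per kg, an antibody to mouse VEGFR2) by the intraperitoneal route made up the other 6 groups, with 8 arrays each except 6 for DC101 at day 60. The labels name no target for G6, and do not say whether a day counts from treatment or to harvest, or whether control flank was injected. No group received an empty virus, so untreated against control compares injected flank with flank labelled control. The design text gives at least 5 animals per group and ties no array to an animal, so 1 animal may stand behind several arrays, in which case the p-values are too small.

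Each array read 1 tissue sample, and precision is limited by the number of arrays and of animals in a group, which the labels do not tie together. Levels below are log2(signal + 16), where signal is the deposited MAS5 intensity, and array medians of signal ran from 455 to 583. The labelled tissue was checked by marker lists: mean control levels were 12.33 for epidermal genes, 16.09 for skeletal muscle genes and 13.26 for fat cell genes, so skin, muscle and fat were all present. Those 3 lists moved with the groups: in untreated tissue at day 5 the mean level of the epidermal genes was 13.29, of the muscle genes 14.04 and of the fat cell genes 11.30. Fewer cells of a type and less RNA per cell cannot be told apart in such bulk tissue. The Actb 3′ to 5′ signal ratio, a sign of RNA quality, had group medians from 1.29 (DC101 at day 5) to 2.22 (G6 at day 60), with 1.31 in control tissue. Arrays 13 and 14 (G6, day 5), 51 and 52 (untreated, day 20), 60 (G6, day 20) and 77 and 79 (untreated, day 60), named by the running numbers of their titles, stood apart from their groups, and results that rest on them are given without them.

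In control flank the Apln level ran from 9.65 to 10.89 with a median of 10.15 (mean 10.20 ± 0.41, SD, n = 8). In untreated tissue it ran from 11.61 to 12.38 at day 5, with a median of 12.09 (mean 12.04 ± 0.25, SD, n = 8). Every day 5 array stood above every control array. Here and wherever groups are said not to overlap, the share of all probe sets without overlap is not given, so this only describes the arrays. At day 20 the untreated level ran from 10.80 to 12.65 with a median of 11.33 (mean 11.55 ± 0.68, SD, n = 8), so the lowest array fell just inside the control range. At day 60 it ran from 9.89 to 10.18 with a median of 10.06 (mean 10.05 ± 0.11, SD, n = 8), all within the control range and with the smallest spread of the 10 groups.

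The ligand gene was thus 3.58-fold higher at day 5 (log2 difference 1.84, SE 0.20, limma adjusted p = 2.83e-12) and 2.54-fold higher at day 20 (1.35, SE 0.20, limma adjusted p = 9.84e-08). Above the control mean were 8 of 8 arrays at both days. Without arrays 51 and 52, the highest of their group for Apln (12.37 and 12.65), the day 20 difference was 1.03 (limma adjusted p = 2.65e-05, with 8.74e-08 to 0.000701 over the 10 alternatives). Day 60 differed from control by -0.15 (95% interval -0.54 to 0.24, limma adjusted p = 0.59). Between the days, Apln fell 2.82-fold from day 20 to day 60 (limma adjusted p = 1.21e-08). From day 5 to day 20 it differed by -0.49 (limma adjusted p = 0.068), and by -0.82 without arrays 51 and 52 (limma adjusted p = 0.0012, with 0.000624 to 0.186 over the 10 alternatives).

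Shown for the ligand is the stretch of 250 bases before its start site, from RefSeq (GRCm38.p6, chrX:48034854-48035103, minus strand); the arrays do not measure what binds there. Capitals mark the core GGAA of ETS factors on either strand. It occurred 3 times, with no overlap, and 93.5% of 32851 mouse promoter windows of the same table held it, with a median of 3 matches. The hypoxia response cores ACGTG and GCGTG, the E-box CACGTG and the KLF core CACCC were searched on both strands and had 0 matches here, against 16.57%, 28.16%, 6.02% and 52.01% of promoters with a match (CACGTG contains ACGTG).
Apln promoter: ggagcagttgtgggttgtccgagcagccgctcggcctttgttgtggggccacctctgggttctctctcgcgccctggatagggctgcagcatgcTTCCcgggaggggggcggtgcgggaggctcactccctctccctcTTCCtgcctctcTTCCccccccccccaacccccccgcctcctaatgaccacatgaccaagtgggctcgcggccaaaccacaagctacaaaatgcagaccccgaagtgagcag

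In control flank the brighter Aplnr probe set ran from 11.54 to 12.93 with a median of 12.61 (mean 12.45 ± 0.46, SD, n = 8). In untreated tissue at day 5 it ran from 14.94 to 15.22 with a median of 15.13 (mean 15.12 ± 0.10, SD, n = 8), and at day 20 from 14.26 to 15.20 with a median of 15.04 (mean 14.94 ± 0.31, SD, n = 8). Neither day overlapped with control. At day 60 the level spread from 9.74 to 13.21 with a median of 11.53 (mean 11.55 ± 1.12, SD, n = 8), with 7 of 8 arrays below the control mean.

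The receptor gene was 6.34-fold higher than control at day 5 (log2 difference 2.67, SE 0.29, limma adjusted p = 7.52e-12) and also higher at day 20 (2.49, SE 0.29, limma adjusted p = 4.29e-10). The dimmer probe set gave 1.77 (SE 0.30) and 1.72 (SE 0.30), also with no overlap between the groups. Days 5 and 20 differed from each other by -0.18 (95% interval -0.77 to 0.41, limma adjusted p = 0.73). From day 20 to day 60 Aplnr fell by 3.39 (SE 0.29, limma adjusted p = 1.52e-13), 10.5-fold. That fall stood at the 0.0337 percentile of the differences of all probe sets tested, and the fall of the dimmer probe set, by 2.68, at the 0.187 percentile.

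At day 60 the receptor lay below control by 0.90 (log2 difference -0.90, SE 0.29, limma adjusted p = 0.0137), and the dimmer probe set by 0.96 (-0.96, limma adjusted p = 0.00916). The call rested on array 79, the lowest of its group in both probe sets (9.74 and 5.55). Without it the differences were -0.64 (limma adjusted p = 0.0797, with 0.00142 to 0.0986 over the 12 alternatives) and -0.53 (limma adjusted p = 0.0858, with 0.000704 to 0.401 over the 10 alternatives). Array 77 stood at the other end of the group, at 13.21 and 10.29. The Actb 3′ to 5′ ratio had a median of 1.88 in this group and 1.31 in control tissue, and adding both RNA ratios to the model gave a receptor difference of -0.81 (limma adjusted p = 0.0986).

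Of the 3 probe sets, 3 were past the threshold (limma adjusted p below 0.05) at day 5, beside 50.2% of all probe sets tested; 3 at day 20, beside 38.4%; and 2 at day 60, beside 33%. Among the untreated days, 0 of 3 passed from day 5 to day 20 (0 by limma at adjusted p, and 1, Apln, at an unadjusted p = 0.0145), beside 18.9% of all probe sets. From day 20 to day 60 all 3 passed, beside 22.7%, and from day 5 to day 60 again 3, beside 35.6%, with Apln lower by 1.99 and Aplnr by 3.57 (log2 differences -1.99 and -3.57).

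**Figure D1:**
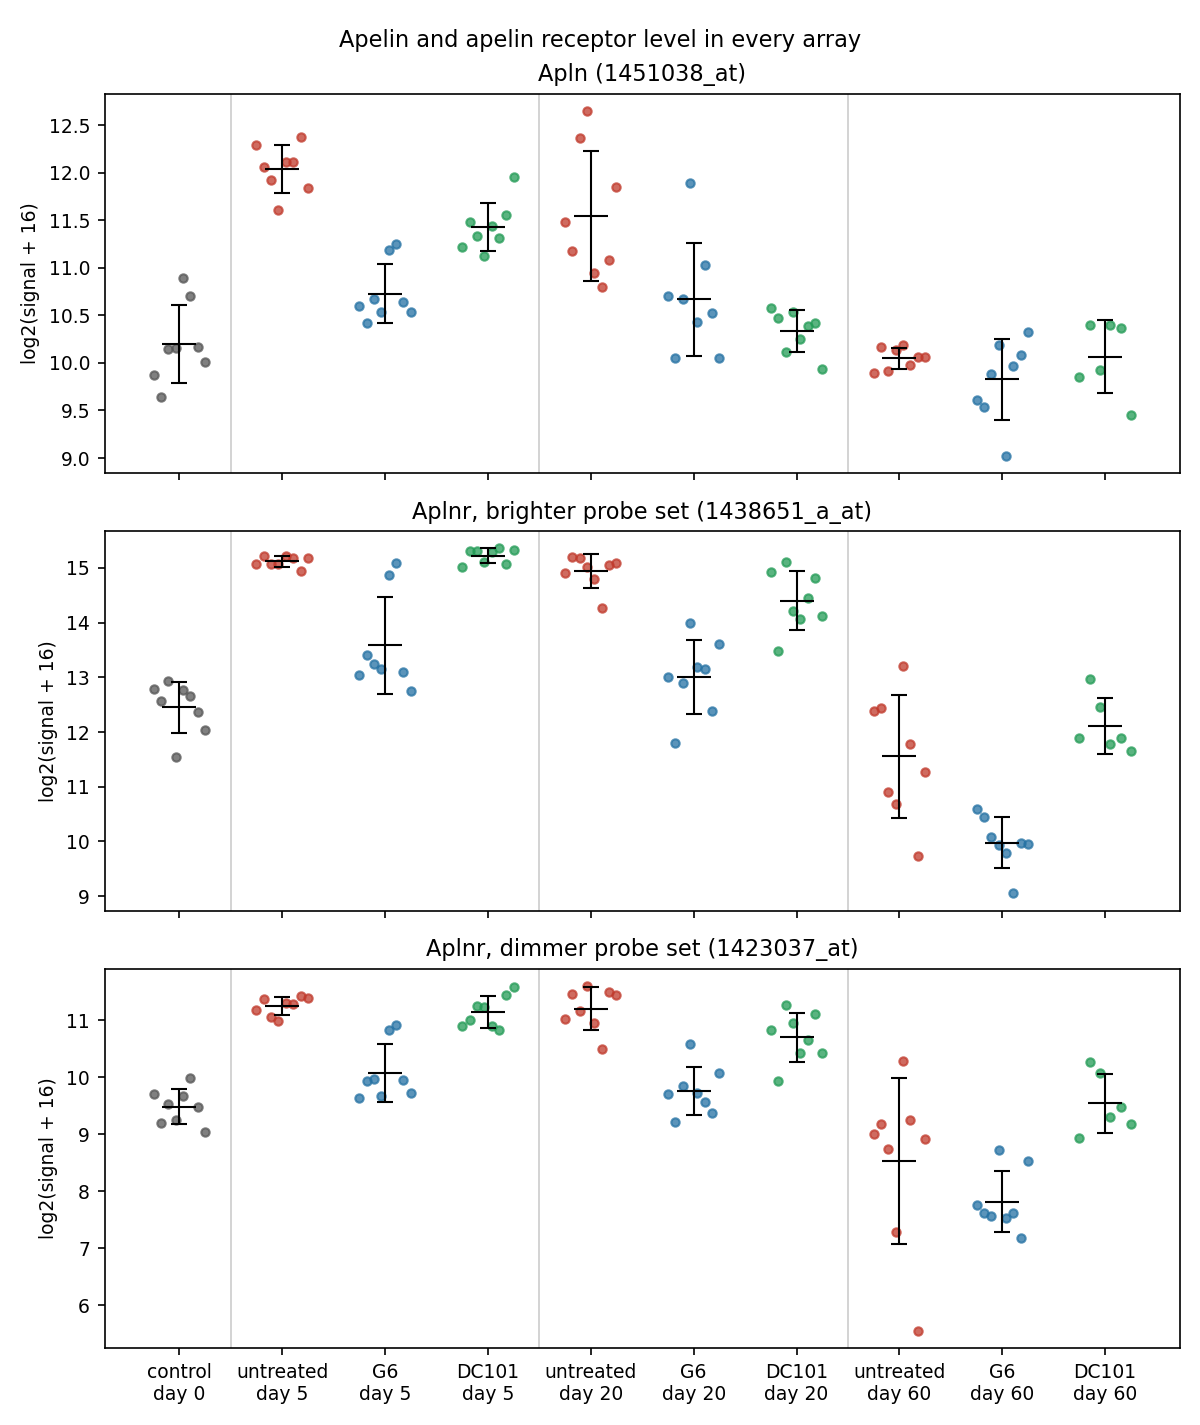
Level (log2(signal + 16), vertical axis) of the Apln probe set and of both Aplnr probe sets in each array (points) of the 10 groups (horizontal axis), with bars for the mean and SD (n = 8 arrays, 6 for DC101 at day 60). Untreated tissue at day 5 (red) lies above all control arrays (grey) in all 3 panels, and at day 60 the untreated Aplnr points reach from 9.74 to 13.21 in the brighter probe set, with those of G6 (blue) at 9.05 to 10.58.

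G6 given with the virus was compared day by day with untreated tissue. At day 5 the Apln level under G6 ran from 10.42 to 11.25 with a median of 10.62 (mean 10.73 ± 0.31, SD, n = 8). Every G6 array lay below every untreated array. Apln was 2.48-fold lower (log2 difference -1.31, SE 0.20, limma adjusted p = 3.14e-07). At day 20 the G6 range was 10.05 to 11.90 with a median of 10.60 (mean 10.67 ± 0.59, SD, n = 8) and overlapped with the untreated range, 7 of 8 arrays lying below the untreated mean. The difference was -0.88 (SE 0.20, limma adjusted p = 0.00283).

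That day 20 difference of the ligand rested on a few arrays. Without untreated arrays 51 and 52 it was -0.55 (limma adjusted p = 0.167), and without G6 array 60, at 11.90 the highest of its group, it was -1.05 (limma adjusted p = 0.000103; 0.000103 to 0.167 over the 11 alternatives). At day 60 Apln with G6 ran from 9.02 to 10.32 with a median of 9.92 (mean 9.83 ± 0.42, SD, n = 8). Both groups overlapped there, with a difference of -0.22 (95% interval -0.62 to 0.17, limma adjusted p = 0.50).

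For the receptor, the brighter probe set with G6 ran from 12.76 to 15.09 at day 5 with a median of 13.20 (mean 13.59 ± 0.89, SD, n = 8). The range was split: 6 arrays reached at most 13.40, and arrays 13 and 14 stood at 14.88 and 15.09, inside or next to the untreated range. The same 2 arrays were the highest of the group for Apln (11.19 and 11.25). Aplnr was 2.90-fold lower with G6 (log2 difference -1.53, SE 0.29, limma adjusted p = 3.62e-05). Without arrays 13 and 14 the difference was -2.001 (limma adjusted p = 9.99e-08; 2.59e-08 to 0.00178 over the 11 alternatives), and the dimmer probe set gave -1.17 (SE 0.30, limma adjusted p = 0.00148).

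At day 20 the G6 range of Aplnr was 11.81 to 13.99 with a median of 13.08 (mean 13.01 ± 0.68, SD, n = 8). All G6 arrays lay below all untreated arrays. The receptor was 3.82-fold lower (log2 difference -1.93, SE 0.29, limma adjusted p = 2.18e-05), at the 0.0712 percentile of the differences of all probe sets, and lower by 1.45 in the dimmer one (-1.45, limma adjusted p = 0.00101). At day 60 the range was 9.05 to 10.58 with a median of 9.96 (mean 9.98 ± 0.46, SD, n = 8), with 8 of 8 arrays below the untreated mean.

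Receptor signal with G6 at day 60 was 2.98-fold below untreated tissue (log2 difference -1.58, SE 0.29, limma adjusted p = 0.000305). The dimmer probe set differed by -0.71 (limma adjusted p = 0.111), and by -1.13 without array 79 (limma adjusted p = 0.000794; 0.000794 to 0.894 over the 10 alternatives). The Actb ratio moved with this group, at a median of 2.22 with G6 against 1.88 in untreated tissue. In a model that also held the RNA ratios the brighter probe set differed by -1.25 (limma adjusted p = 0.0579, with 1.52e-05 to 0.111 over the 12 alternatives). Compared with control flank, G6 tissue at day 60 had 5.57-fold less Aplnr signal (log2 difference -2.48, SE 0.29, limma adjusted p = 4.23e-10), with no overlap, and -2.07 with the RNA ratios as covariates (limma adjusted p = 0.0037, the highest over the 10 alternatives, with 3.34e-10 the lowest). The dimmer probe set went from -1.67 to -0.61 in that model (limma adjusted p = 0.445, with 1.92e-06 as the lowest over the 8 alternatives).

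G6 against untreated passed in 3 of 3 probe sets at day 5, beside 31% of all probe sets; in 3 at day 20, beside 7.89%; and in 1 at day 60, beside 10.5%. Compared with control flank, which shares its arrays with the untreated comparisons, G6 tissue still stood higher at day 5 in Apln (log2 difference 0.53, limma adjusted p = 0.0257) and Aplnr (1.13, limma adjusted p = 0.00133). Both calls were also lost with the RNA ratios in the model (0.58 and 0.55, limma adjusted p = 0.132 and 0.35) and without arrays 13 and 14, at 0.37 and 0.66 (limma adjusted p = 0.178 and 0.0661; highest over all alternatives 0.178 and 0.35, lowest 0.0212 and 0.00121). These were 2 of 3 probe sets, beside 39.9%. At day 20 0 of 3 passed (Apln 0.47, limma adjusted p = 0.0576, with an unadjusted p = 0.0194; Aplnr 0.55, limma adjusted p = 0.145), beside 32.3%, and at day 60 2 of 3, beside 47%.

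DC101 was examined in the same way, and the ligand and the receptor differed in which days passed. With DC101 at day 5 Apln ran from 11.13 to 11.95 with a median of 11.38 (mean 11.43 ± 0.25, SD, n = 8), with 8 of 8 arrays below the untreated mean but some overlap. The difference was -0.61 (SE 0.20, limma adjusted p = 0.0306). The call was lost when any 1 of 6 arrays was left out (1, 6 and 7 of untreated tissue and 17, 19 and 20 of DC101), with limma adjusted p up to 0.0679 and a difference of -0.69 to -0.56. It was also lost with the RNA ratios in the model (-0.62, limma adjusted p = 0.0627) and with adjacent arrays averaged. Over the 9 alternatives the limma adjusted p ran from 0.00178 to 0.128.

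At day 20 Apln with DC101 ran from 9.93 to 10.58 with a median of 10.41 (mean 10.34 ± 0.22, SD, n = 8), below all untreated arrays and inside the control range. It was 2.31-fold lower than in untreated tissue (log2 difference -1.21, SE 0.20, limma adjusted p = 7.1e-05), at the 0.494 percentile of all differences. The call held in all 10 alternatives (limma adjusted p 5.82e-05 to 0.0347), with -0.89 without arrays 51 and 52 (limma adjusted p = 0.00936). Day 60 gave a range of 9.46 to 10.40 with a median of 10.15 (mean 10.07 ± 0.39, SD, n = 6) and a difference of 0.02 (95% interval -0.41 to 0.44, limma adjusted p = 0.97).

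The brighter Aplnr probe set with DC101 ran from 15.01 to 15.36 at day 5 with a median of 15.30 (mean 15.22 ± 0.14, SD, n = 8), across the untreated range. The difference was 0.10 (95% interval -0.48 to 0.69, limma adjusted p = 0.87), and -0.11 in the dimmer probe set (95% interval -0.70 to 0.49). At day 20 it ran from 13.49 to 15.11 with a median of 14.33 (mean 14.40 ± 0.54, SD, n = 8), with 7 of 8 arrays below the untreated mean. That difference was -0.54 (95% interval -1.13 to 0.05, limma adjusted p = 0.28).

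At day 60 all 6 DC101 arrays lay above the untreated mean of Aplnr, at 11.65 to 12.98 with a median of 11.89 (mean 12.11 ± 0.51, SD, n = 6). The brighter probe set differed by 0.56 (95% interval -0.08 to 1.19, limma adjusted p = 0.25) and the dimmer one by 1.02 (SE 0.32, limma adjusted p = 0.0264). The call of the dimmer one was lost without DC101 array 90 or 91 or untreated array 76 or 79, and was 0.59 without array 79 (limma adjusted p = 0.139; 0.00398 to 0.634 over the 10 alternatives). It was also lost with the RNA ratios in the model (0.46, limma adjusted p = 0.634). DC101 against untreated thus passed in 1 of 3 probe sets at day 5 (Apln), beside 11.7% of all probe sets; in 1 at day 20 (Apln), beside 6.38%; and in 1 at day 60 (the dimmer Aplnr), beside 12.4%. Whether the antibody difference of the ligand departed from that of the receptor was not tested.

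Against control flank DC101 tissue at day 5 was higher in Apln by 1.23 (SE 0.20, limma adjusted p = 4.86e-07) and in Aplnr by 2.77 (SE 0.29, limma adjusted p = 6.43e-12). All 3 probe sets were called, beside 43.1% of all probe sets called. Their ranges also did not overlap with control, and the share without overlap over all probe sets is not given. At day 20 the 2 Aplnr probe sets passed, at 1.95 and 1.22, and Apln did not (0.14, limma adjusted p = 0.64), beside 28.7%. At day 60 0 of 3 passed by limma (unadjusted p from 0.282 to 0.855), beside 19.7%.

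**Figure D2:**
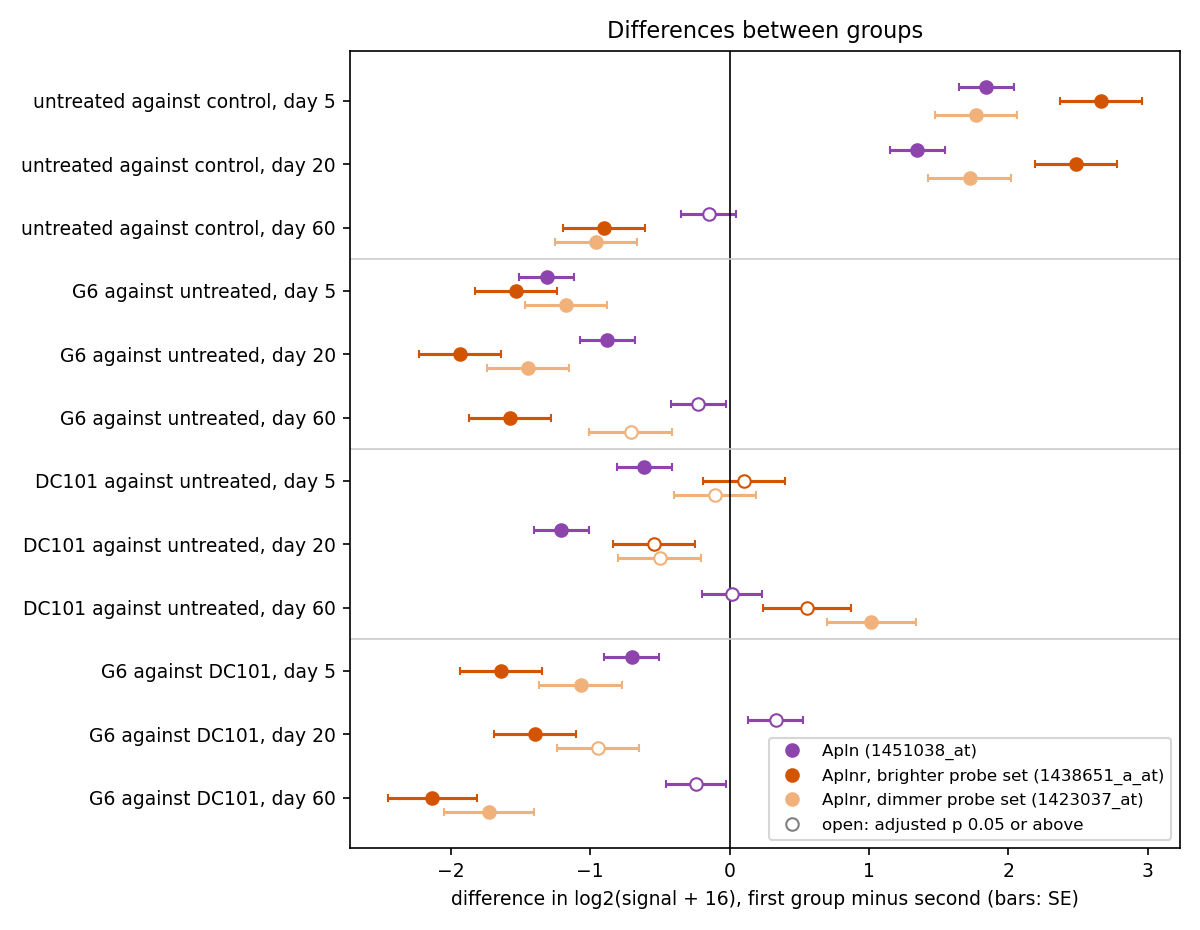
Difference in log2(signal + 16) with its SE (horizontal axis) between the groups named on the vertical axis, for Apln and both Aplnr probe sets; filled points have a limma adjusted p below 0.05. In the rows of DC101 against untreated at days 5 and 20 the Apln points (-0.61 and -1.21) are filled and those of Aplnr are open, while G6 against untreated at days 5 and 20 has 3 filled points each.

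The antibodies were also compared directly, at their different doses. At day 5 G6 tissue had less Apln than DC101 tissue (log2 difference -0.70, SE 0.20, limma adjusted p = 0.00981) and less Aplnr (-1.64, SE 0.29, limma adjusted p = 3.47e-05). The Apln call was lost with adjacent arrays averaged (limma adjusted p = 0.0662) and with the RNA ratios in the model (limma adjusted p = 0.0738, with 0.00262 as the lowest over the 10 alternatives); the median Actb ratio was 1.76 with G6 and 1.29 with DC101. At day 20 Apln differed by 0.33 (95% interval -0.06 to 0.72, limma adjusted p = 0.48), while Aplnr was lower with G6 by 1.39 (log2 difference -1.39, SE 0.29, limma adjusted p = 0.0175). This receptor call was lost in the dimmer probe set (-0.94, limma adjusted p = 0.113) and without G6 array 59 or 63 (limma adjusted p up to 0.072). It was also lost with adjacent arrays averaged and with only the groups compared (limma adjusted p = 0.24, the highest over the 11 alternatives, with 0.000536 the lowest).

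At day 60 the difference between the antibodies in Aplnr was -2.13 (SE 0.32, limma adjusted p = 7.29e-07), 4.38-fold, and all G6 arrays lay below all DC101 arrays in both probe sets. The median Actb ratio was 2.22 with G6 and 1.302 with DC101, and a model that also held the RNA ratios gave -1.69 (limma adjusted p = 0.101, with 1.02e-07 as the lowest over the 10 alternatives). The dimmer probe set went from -1.72 to -0.63 in that model (limma adjusted p = 0.63, with 5.48e-06 as the lowest over the 8 alternatives), so both receptor calls were lost. Apln differed by -0.24 (95% interval -0.67 to 0.18, limma adjusted p = 0.39). G6 against DC101 passed in 3 of 3 probe sets at day 5, beside 13.8% of all probe sets; in 1 at day 20, beside 0.371%; and in 2 at day 60, beside 37.9%.

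The change of an antibody difference between days was tested as an interaction. For DC101 the Apln difference was higher at day 60 than at day 20 by 1.22 (SE 0.29, limma adjusted p = 0.00209), and the dimmer Aplnr probe set by 1.52 (SE 0.44, limma adjusted p = 0.0111). The latter call was lost with the RNA ratios in the model (0.57, limma adjusted p = 0.595) and with only the groups compared (limma adjusted p = 0.0783; lowest over the 11 alternatives 0.00172). The brighter one gave 1.09 (SE 0.43, limma adjusted p = 0.0675). These were 2 of 3 probe sets, beside 17.2% of all. In the other 3 contrasts 0 of 3 passed by limma: G6 at day 20 against day 5 (beside 9.14%; Apln 0.44, unadjusted p = 0.123), G6 at day 60 against day 20 (beside 0.0862%; Apln 0.65, unadjusted p = 0.0221) and DC101 at day 20 against day 5 (beside 2.02%; Apln -0.60, unadjusted p = 0.036).

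Over the 10 groups the mean Apln level was highest in untreated tissue at day 5 (12.04), followed by untreated day 20 (11.55), DC101 day 5 (11.43), G6 day 5 (10.73), G6 day 20 (10.67), DC101 day 20 (10.34), control (10.20), DC101 day 60 (10.07), untreated day 60 (10.05) and G6 day 60 (9.83). Only 1 pair of neighbours in that order passed the test, DC101 day 5 against G6 day 5 (gap 0.70, limma adjusted p = 0.00981), a call lost with adjacent arrays averaged or the RNA ratios in the model, as given above; the other 8 had adjusted p from 0.0679 to 0.97. The order of the brighter Aplnr probe set began with DC101 day 5 (15.22), untreated day 5 (15.12), untreated day 20 (14.94) and DC101 day 20 (14.40). G6 day 5 (13.59), G6 day 20 (13.01), control (12.45), DC101 day 60 (12.11), untreated day 60 (11.55) and G6 day 60 (9.98) followed.

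Among neighbours in the receptor's order 2 pairs differed: DC101 day 20 against G6 day 5 (gap 0.82, limma adjusted p = 0.0329) and untreated against G6 at day 60 (gap 1.58, limma adjusted p = 0.000305). The dimmer probe set put untreated day 5 (11.25) and untreated day 20 (11.21) before DC101 day 5 (11.15), and control (9.48) after DC101 day 60 (9.54). Its 1 passing neighbour pair was control against untreated day 60 (gap 0.96, limma adjusted p = 0.00916). In the brighter Aplnr probe set DC101 day 20 lay 0.82 below DC101 day 5 (limma adjusted p = 0.0367) and 0.82 above G6 day 5. In the dimmer one neither gap passed (0.44 and 0.63, limma adjusted p = 0.315 and 0.114). For Apln DC101 day 20 stood next to control (gap 0.14, limma adjusted p = 0.638).

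**Figure D3:**
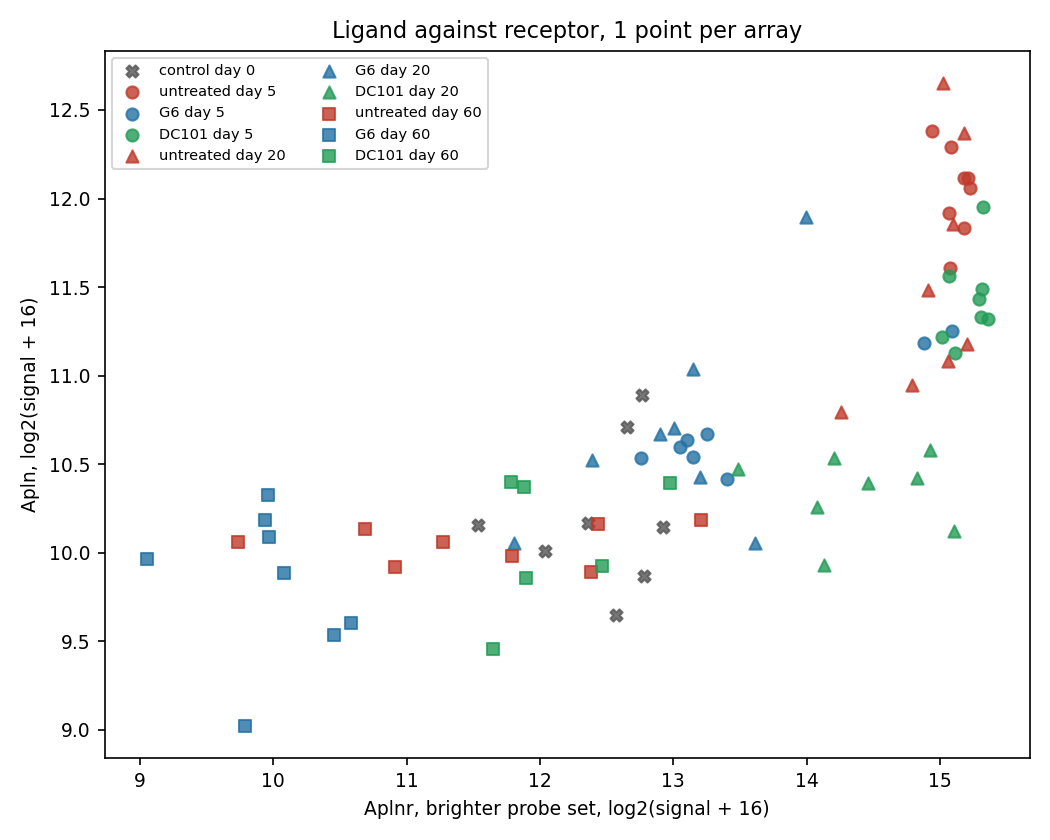
Apln level (vertical axis) against the level of the brighter Aplnr probe set (horizontal axis), both log2(signal + 16), 1 point per array, with colour for treatment and shape for day. DC101 arrays of day 20 (green triangles) have Aplnr levels of 13.49 to 15.11 with Apln at or below 10.58, and untreated arrays of day 60 (red squares) spread from 9.74 to 13.21 in Aplnr while Apln runs only from 9.89 to 10.18.

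Within groups, ligand and receptor varied together only weakly. Deviations from the group means over the 78 arrays had Pearson's r = 0.29 (permutation p = 0.00334, adjusted 0.00401 over 6 relations computed) and Spearman's rho = 0.23 (permutation p = 0.0457, adjusted 0.0548). Without arrays 52 and 60, the farthest on the x axis, r was 0.25, and with the arrays of adjacent numbers averaged (39 pairs) it was 0.36. The 2 Aplnr probe sets had r = 0.78 (rho 0.69; permutation p = 1e-05, the smallest that 100000 permutations can give; r = 0.70 without arrays 77 and 79).

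The virus makes a mouse form of the factor encoded by Vegfa, and whether the Vegfa signal includes viral transcript was not tested. Its mean level was 10.12 in control and 14.11 in untreated tissue at day 5. Deviations of Apln went with those of Vegfa (r = 0.48, permutation p = 0.0004; rho 0.33, permutation p = 0.00822; r = 0.46 without arrays 52 and 66), and with the mean of 20 pan-endothelial genes (r = 0.48, permutation p = 0.0001; rho 0.36, permutation p = 0.00342; r = 0.44 without arrays 60 and 77). For Aplnr r was 0.25 with Vegfa (permutation p = 0.00847; rho 0.16, permutation p = 0.155; r = 0.22 without arrays 52 and 66). With the pan-endothelial mean it was 0.63 (permutation p = 1e-05; rho 0.54, permutation p = 1e-05; r = 0.55 without arrays 60 and 77). Adjusted over the 6 relations, the Pearson p-values ran from 3e-05 to 0.00847. Arrays of adjacent number resembled each other (intraclass correlation 0.47 for Apln and 0.42 for Aplnr), so these p-values are too small if such arrays share an animal.

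Both genes were then set against the endothelium as a whole, as the level minus the mean of 20 pan-endothelial genes (such as Pecam1, Cdh5 and Tie1) in the same array. Relative to that mean, Aplnr was higher in untreated tissue than in control by 0.61 at day 5 (exact permutation test, two-sided, adjusted p = 0.00559 over 18 comparisons) and 0.66 at day 20 (exact permutation test, adjusted p = 0.0403). It was also higher with DC101 at day 5, by 0.55 (exact permutation test, adjusted p = 0.0042), and lower with G6 at day 20, by 0.79 (difference -0.79, exact permutation test, adjusted p = 0.0147). Apln passed once, with G6 at day 5, where it was higher relative to the mean by 0.50 (exact permutation test, adjusted p = 0.0042). In that comparison the ligand had fallen less (-1.31) than the pan-endothelial mean, which was 12.86 in untreated tissue and 11.06 with G6. The median of the differences of the 20 genes, another measure, was -2.04.

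Of these 5 calls the 4 of Aplnr depend on the reference, and that of Apln held in 4 of 4 alternatives (exact permutation test, adjusted p 0.000932 to 0.0154). With Cdh5, a cell junction gene, in place of the mean, Aplnr at day 5 was below control by 0.50 (difference -0.50, exact permutation test, adjusted p = 0.0203, 0.00373 to 0.131 over the 4 alternatives), the other sign. The ranges of all groups overlapped in each of the 18 comparisons.

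Of 35 further genes of apelin signalling, listed by textbook role, 33 matched by symbol and 30 passed the filter. Apela, the other ligand of the receptor, was above the filter level on 0 of 78 arrays in both of its probe sets and was not tested. In untreated against control tissue 11 of the 30 were higher and 6 lower at day 5, beside 27.7% higher and 24.7% lower of all genes tested. The numbers were 11 and 4 at day 20 (beside 22.4% and 18.2%), and 4 and 8 at day 60 (beside 18.3% and 16.7%). Median differences were 0.16, 0.27 and 0.02, next to 0.05, 0.05 and 0.08 over all genes.

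Of the 30 genes tested 13 did not pass at day 5, and more of the 11 higher ones than of the 6 lower ones are named below. Among enzymes that process the peptide, Furin, a convertase that cuts precursors, rose by 0.67 at day 5, while Mme, the membrane protease neprilysin that can degrade apelin, was lower (log2 difference -1.47). Of the signal carriers next to the receptor, the arrestin gene Arrb2 rose by 1.82 and the receptor kinase gene Grk5 by 1.03. The inhibitory G protein genes Gnai2 and Gnai3 rose by 0.94 and 0.44. Downstream, Nos3, the endothelial nitric oxide synthase, rose by 1.29 and Akt1, a survival kinase, by 1.23.

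Gja4, a gap junction gene of arterial endothelium, had the largest rise of the list at day 5 (3.002) and at day 20 (2.80). Prkaa2, an AMP-activated kinase subunit abundant in muscle, had the largest fall (-2.99), in a comparison in which 14 of 15 skeletal muscle genes were lower; its part in the result was not tested. Hif1a, the oxygen-regulated factor known to act on Apln, rose by 0.78 at day 20 and 0.65 at day 60. Of 15 hypoxia genes 1 rose and 7 fell at day 20, beside 22.4% and 18.2% of all genes.

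With G6 the pathway list had 7 genes higher and 5 lower at day 5 (beside 16.6% and 14.9% of all genes), 1 and 6 at day 20 (beside 3.54% and 5.63%), and 0 and 5 at day 60 (beside 2.48% and 8.95%). At day 5 the median difference of the list was 0.13, next to 0.01 over all genes, and the 7 higher genes of that day are not named here. Of the lower genes, Gja4 fell by 2.72 and 1.28 at days 5 and 20, and Nos3 by 1.63 and 0.90. Grk5 fell at all 3 days, by 0.92, 0.67 and 0.66, and the hypoxia factor gene Epas1 was lower at all 3 (log2 differences -1.05, -0.99 and -0.81). Klf4, a transcription factor of quiescent endothelium and of epidermis, rose by 0.55 at day 20, where 5 of 12 epidermal genes rose; their part in the result was not tested, and without the 6 arrays named next the call was lost.

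With DC101 the list had 2 higher and 2 lower at day 5 (beside 4.66% and 7.09%), 0 and 6 at day 20 (beside 2.21% and 4.91%), and 6 and 0 at day 60 (beside 4.82% and 7.05%). At day 20 the lower genes were Gja4 (-1.12), Epas1 (-0.94), Nos3 (-0.81), Grk5 (-0.73), Akt1 (-0.52) and Arrb1 (-0.38), an arrestin gene. At day 60 the 6 higher genes were Prkaa2 (1.24), Klf2 (0.86), a flow-responsive factor, Tek (0.72), the angiopoietin receptor, Agtrap (0.55), Mef2d (0.51) and Mef2a (0.46). With no filter 3 of the list were higher there; the median Actb ratio was 1.302 with DC101 and 1.88 in untreated tissue, and its part in the result was not tested. Without arrays 13, 14, 51, 52, 77 and 79 the day 20 list held 0 lower genes with either antibody (limma), against 4 with G6 and 7 with DC101 at an unadjusted p below 0.05. The called counts were thus not kept. Of these arrays only 51 and 52 belong to a day 20 group, and what lost the calls was not tested.

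Tip cell and pan-endothelial genes, which share no gene with the pair, were read as the surroundings of the 2 genes. The tip cell list holds Vegfa, whose signal may include transcript of the virus. In untreated tissue 22 of 24 tip cell genes and 18 of 20 pan-endothelial genes were higher at day 5, beside 27.7% of all genes, and 0 and 2 were lower, beside 24.7%, with medians of 2.29 and 2.41 where Apln had 1.84 and Aplnr 2.67. At day 20 the medians were 1.67 and 1.99, next to 1.35 for Apln and 2.49 for Aplnr. At day 60 they were 0.24 and -0.18, next to -0.15 and -0.90.

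With G6 19 of 24 tip cell genes were lower at day 5 and 17 at day 20, and of the 20 pan-endothelial genes 17 and 15, beside 14.9% and 5.63% of all genes. Without the 6 arrays that stand apart the day 20 counts were 7 and 8. With DC101 the numbers were 8 and 10 tip cell genes and 3 and 12 pan-endothelial genes, beside 7.09% and 4.91% of all genes. Aplnr was not among the called genes at either day, while Apln was at both, though its day 5 call was lost in some alternatives, as given above. Medians of the tip cell and pan-endothelial lists with DC101 at day 20 were -0.63 and -0.80, next to -1.21 for Apln and -0.54 for Aplnr. Without the 6 arrays, 6 tip cell and 3 pan-endothelial genes were lower there, and 5 pan-endothelial genes at day 5.

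**Figure D4:**
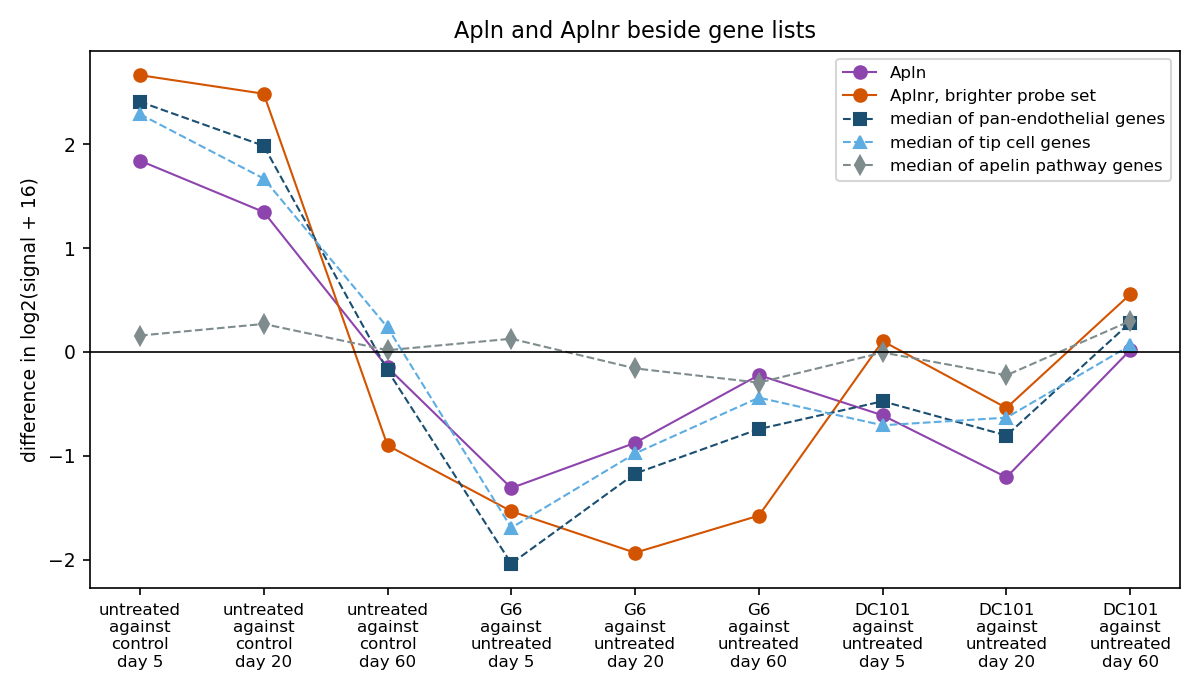
Difference in log2(signal + 16) (vertical axis) of Apln and of the brighter Aplnr probe set (solid lines) in 9 comparisons (horizontal axis), with the median of the tip cell, pan-endothelial and apelin pathway genes (dashed lines; lines only join points of one series). Aplnr lies below both endothelial medians with G6 at day 20 (-1.93). Relative to the pan-endothelial mean it passed there (exact permutation test, adjusted p = 0.0147), a call lost relative to Cdh5. Aplnr also lies below both at day 60 of untreated tissue (-0.90) and of G6 (-1.58), and Apln with DC101 at day 20 (-1.21). Relative to that mean these gaps did not pass (exact permutation test, adjusted p = 0.0531, 0.144 and 0.281).

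Genes most like each of the pair were found by Pearson's correlation of the 10 group means, among 5314 genes whose means span at least 1 on the log2 scale; the points share the control group and the virus, and no p is given. For Apln the first was Adam12, a metalloprotease gene (r = 0.991), followed by Dchs1, a cadherin gene (0.983), Col18a1, the basement membrane collagen that yields endostatin (0.982), and Cx3cl1, a membrane-bound chemokine gene (0.981). Mfng, which modifies Notch receptors (0.981), Trp53i11 (0.981), Vasp, an actin regulator (0.980), and Fam171a2 (0.980) came next. Trp53i11 also belongs to the tip cell list.

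For Aplnr the first was Ets1, a transcription factor of endothelium and lymphocytes (r = 0.984), then Plvap, the diaphragm protein gene of fenestrated capillaries (0.982), Tmem88 (0.979) and Shank3 (0.974). Akap2 (0.971), Pde2a, a cyclic nucleotide phosphodiesterase (0.968), Eng, the coreceptor endoglin (0.968), and Gimap6 (0.967) followed, Eng being in the pan-endothelial list. Over the same 10 means Apln and Aplnr had r = 0.86. That put Aplnr at rank 421 among the genes like Apln, and Apln at rank 302 among those like Aplnr.

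**Figure D5:**
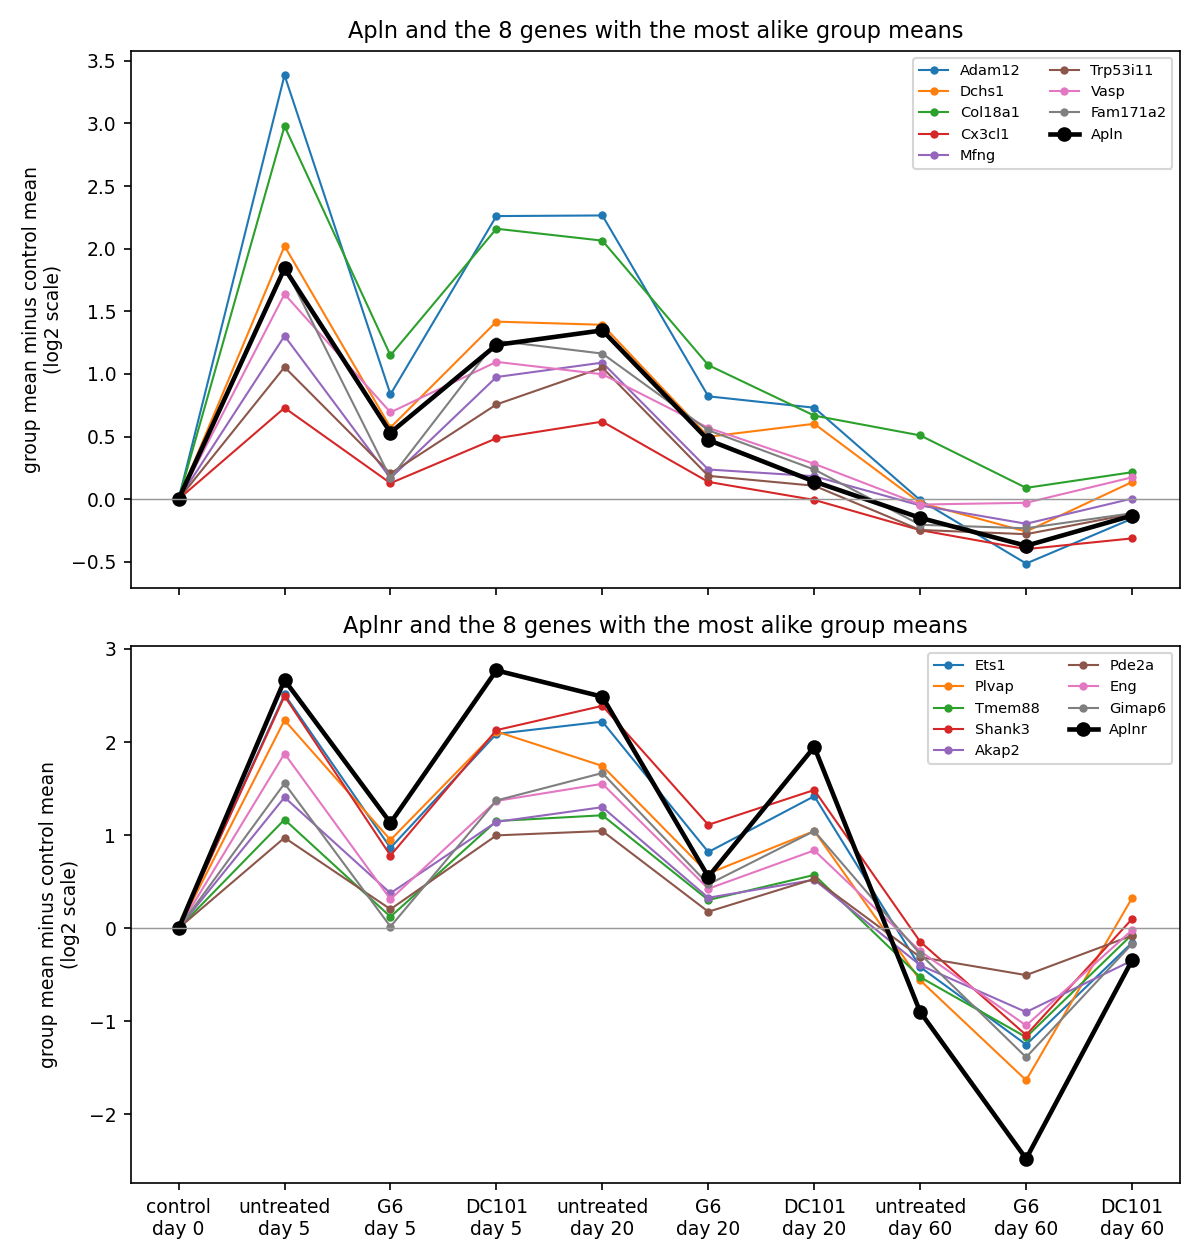
Group mean minus the control mean on the log2 scale (vertical axis) over the 10 groups (horizontal axis) for Apln (upper panel) and Aplnr (lower panel), in black, and the 8 genes whose group means correlate best with each; lines only join the points of one gene. At DC101 day 20 the black line lies 0.14 above control for Apln and 1.95 above it for Aplnr.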

How the data were processed

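RNA of 78 mouse flank samples was measured on Affymetrix whole-genome mouse arrays. The authors deposited linear MAS5 signals, an intensity for each probe set, made in GCOS 1.3 per the submitters' processing notes. Of 45101 probe sets, 34958 carried 1 gene symbol, 932 several and 9211 none; only the first kind was named. Values were taken as log2(signal + 16). A probe set was tested when its signal passed 331 (percentile 40 over the whole table) on 6 or more arrays, which left 26696 probe sets; lists used the brightest probe set of each of 14718 genes.

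1 linear model over all 10 groups was fitted in limma 3.58.1 (R 4.3.3) with eBayes and an intensity trend, two-sided, with Benjamini-Hochberg adjustment over all probe sets and a threshold of 0.05. A difference on the log2(signal + 16) scale understates the change of dim probe sets. Values relative to endothelial genes used exact permutation (scipy 1.17.1). The fit was checked on simulated data. No array was a copy of another (highest correlation 0.972). Groups came from the labels, and title numbers are not shared between groups.

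The members and the gene lists were chosen with earlier results of these data known. Named genes were every probe set of the pair, members of the pathway list past the threshold, and for each of the pair the 8 genes with the most alike group means. Listed genes such as Adrbk1, Plin1 and Cfd were unmatched; Tek, Adm, Vwf and others stand in more than 1 list. Alternatives were other pseudocounts (1 and 64), no filter, quantile normalization, the brightest probe set of a gene, only the groups compared, array weights, adjacent arrays averaged, RNA ratios as covariates, the other probe set, and arrays left out.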

Additional observations from a re-analysis of the deposited data

Results flagged for a closer look

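In untreated tissue at day 20 the lowest Aplnr array, number 54, stood at 14.26 in the brighter probe set, with a gap to the next array that exceeded Dixon's 95% critical value for 8 samples. It was the 1 such array in 30 groups of values, where about 1 in 20 is flagged with no real departure. The same array had the lowest Apln level of its group (10.80).

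The DC101 difference from untreated tissue changed between day 20 and day 60, by 1.22 for Apln (limma interaction, adjusted p = 0.00209) and by 1.52 for the dimmer Aplnr probe set (limma interaction, adjusted p = 0.0111). Over the alternatives the Apln call held in 12 of 12 (limma adjusted p 0.00155 to 0.0297). The dimmer Aplnr probe set lost it with the RNA ratios in the model, at 0.57 (limma adjusted p = 0.595, with 0.00172 as the lowest over 11 alternatives), and with only the groups compared (limma adjusted p = 0.0783), and held it without arrays 51 and 52 (limma adjusted p = 0.0299). The cause was not tested.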

How the results depend on the processing

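Of the alternatives other than single arrays left out, 439 values that answer a comparison kept direction and side of the threshold, 21 lost the call, 6 gained one, 8 changed sign and 14 counts moved; the cause was not tested. Calls lost with only the groups compared (fewer samples) were Aplnr at day 60 of untreated against control (-0.90), Apln with G6 at day 20 (-0.88) and Aplnr in G6 against DC101 at day 20 (-1.395), and in the dimmer Aplnr probe set untreated against control and DC101 against untreated at day 60 and the change of the DC101 difference from day 20 to 60. Averaging adjacent arrays lost, at the same values, Aplnr at day 60 of untreated against control and Aplnr in G6 against DC101 at day 20. It also lost Apln in DC101 against untreated (-0.61) and G6 against DC101 (-0.70) at day 5, besides Apln in G6 against control at day 5. The dimmer Aplnr in DC101 against untreated at day 60 was lost as well. The RNA ratios as covariates lost Aplnr at day 60 in untreated against control (-0.81), G6 against untreated (-1.25) and G6 against DC101 (-1.69), and Apln at day 5 in DC101 against untreated (-0.62) and G6 against DC101 (-0.67). They also lost Apln and Aplnr in G6 against control at day 5 (0.58 and 0.55) and, in the dimmer Aplnr probe set at day 60, 4 calls (untreated and G6 against control, DC101 against untreated and G6 against DC101) and the DC101 change. Without arrays 51 and 52 Apln with G6 at day 20 (-0.55) was lost, and without array 79 Aplnr of untreated tissue at day 60 (-0.64). The other Aplnr probe set lost G6 at day 60 (-0.71) and G6 against DC101 at day 20 (-0.94), and gained DC101 at day 60 (1.02).

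Among levels not set against endothelial genes, the signs that turned were of differences that passed no test: Aplnr with DC101 at day 5 (-0.11) and DC101 against control at day 60 (0.059) in the other probe set; untreated day 20 against day 5 with the RNA ratios (0.16 and 0.17) and, in the dimmer probe set, array weights (0.012); DC101 against control at day 60 in the dimmer one with array weights (-0.012); and the change of the G6 difference of Aplnr from day 5 to 20 without arrays 13 and 14 (0.067).

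Relative to Pecam1 in place of the endothelial mean, Apln turned at day 60 of untreated tissue (0.041) and with G6 at day 20 (-0.18), and Aplnr lost its calls in untreated tissue (0.56 and 0.82) and with DC101 at day 5 (0.71). Relative to Cdh5, Apln passed in untreated tissue at days 5 and 20 (-1.33 and -0.90) and with G6 at day 20 (0.73), and turned in untreated tissue at day 60 (0.31) and with DC101 at days 5 and 20 (0.031 and 0.23). Aplnr relative to Cdh5 turned at day 5 (-0.50), lost day 20 (0.24) and G6 at day 20 (-0.32), and passed with G6 at day 5 (1.19) and DC101 at day 20 (0.89). Without the 6 arrays Apln of untreated tissue at day 60 was 0.030.

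With no filter 3 pathway genes were higher with DC101 at day 60, and 0 pan-endothelial genes were lower in untreated tissue at day 60 or higher with DC101 at days 5 and 60 (limma). Without the 6 arrays, an alternative chosen after seeing the data as was leaving out array 60, 0 pathway genes were higher or lower with G6 at day 20, 8 lower with G6 at day 60 and 0 lower with DC101 at day 20. The lower tip cell genes were then 2 in untreated tissue at day 60, 7 with G6 and 6 with DC101 at day 20. The lower pan-endothelial genes were 8 with G6 at day 20 and 5 and 3 with DC101 at days 5 and 20.

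Leaving out 1 array gave -0.69 to -0.56 for Apln with DC101 at day 5 and -0.049 to 0.14 at day 60, -1.54 to -1.22 for Aplnr in G6 against DC101 at day 20, and -1.14 to -0.64 for Aplnr in untreated tissue at day 60. In the dimmer Aplnr probe set it gave -0.086 to 0.18 for DC101 against control at day 60 and -0.10 to 0.055 for untreated day 20 against day 5. Some alternatives tested other numbers of probe sets (14718 with the brightest one per gene and 34958 with no filter, against 26696 in the main fit). Their counts of calls are thus not on an equal footing, and shares were not compared. The number of calls over all probe sets moved by over 1.5 times in all 25 comparisons. It did so for G6 against untreated at days 20 and 60 (2105, from 75 to 4357, and 2809, from 64 to 3752), DC101 against untreated (3136, from 1643 to 7537; 1704, from 195 to 2137; and 3310, from 382 to 7537) and G6 against DC101 at days 20 and 60 (99, from 0 to 1021, and 10109, from 0 to 12991). Against control they were, by day, for untreated tissue 13394 (7767 to 15051), 10258 (6056 to 11025), 8798 (3523 to 9108); for G6 10649 (5904 to 11238), 8615 (5148 to 10040), 12547 (574 to 13017); for DC101 11504 (6753 to 12100), 7659 (3936 to 9949), 5271 (3265 to 7805). G6 against untreated and against DC101 at day 5 had 8289 (4667 to 11206) and 3695 (1688 to 4811). Untreated days 20 against 5, 60 against 20 and 60 against 5 had 5044 (2973 to 8790), 6048 (3023 to 7340) and 9508 (5784 to 12192). The changes from day 5 to 20 and from day 20 to 60 had 2440 (941 to 5766) and 23 (0 to 280) for G6, and 539 (153 to 3304) and 4593 (955 to 8311) for DC101. No paired analysis was possible because the running numbers in the titles are not shared between groups. Array and animal numbers per group limit the precision, and the dimmer Aplnr probe set came near background in some arrays.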
